A study of Homo sapiens with 9 samples.

Results

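The 10 genes described here are keratins of simple epithelia and regulators of epithelial or non-neural ectoderm identity: KRT8, KRT18, KRT19, GRHL2, GRHL3, ESRP1, GATA2, GATA3, OVOL1 and TP63. They were picked by name, for their known roles, out of 62710 genes in the table, and all 10 were found there. Their levels were followed through 9 poly(A) RNA libraries of H9, an established line of human embryonic stem cells. The cells had 72 h of pluripotency medium on a Matrigel-coated plate of PDMS, a soft silicone, and then 48 h of dual SMAD inhibition with SB431542 and LDN, which block TGF-beta and BMP receptors. For a last 24 h, still with both inhibitors, the plate was concave (3 libraries), convex (3 libraries) or flat as the control (3 libraries), and in each group the libraries are numbered 1, 2 and 3. All 9 libraries thus share the line, the substrate and the neural induction, and none comes from undifferentiated cells, so a level here cannot be set against its starting point.

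Keratins build the intermediate filaments of epithelia from pairs of a type II protein, such as KRT8, and a type I protein, such as KRT18 or KRT19. Human pluripotent stem cells are epithelial and make these simple keratins, and Grainyhead-like factors, OVOL1 and the splicing factor ESRP1 sustain the epithelial state. When BMP signalling is blocked, ectoderm turns to a neural fate, while cells that keep receiving BMP switch on TFAP2A, GATA2, GATA3 and, on the way to epidermis, TP63.

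The 10 genes fell into an abundant and a scarce set. Per kilobase of transcript, and averaged over the 9 libraries, KRT8 stood at 161 CPM (read counts scaled to a common library size, with TMM factors), KRT19 at 112 and KRT18 at 73.1, with ESRP1 next at 25.1. The other 6 were at or below 1.66 CPM per kilobase, the level of GRHL2. GATA2 (0.508), OVOL1 (0.438) and GRHL3 (0.351) lay close together on this scale, and GATA3 (0.0940) and TP63 (0.00444) lay at the bottom. For 9 of the 10 the counts sufficed for testing among 23075 genes, and TP63 was left out of the tests.

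**Figure D1:**
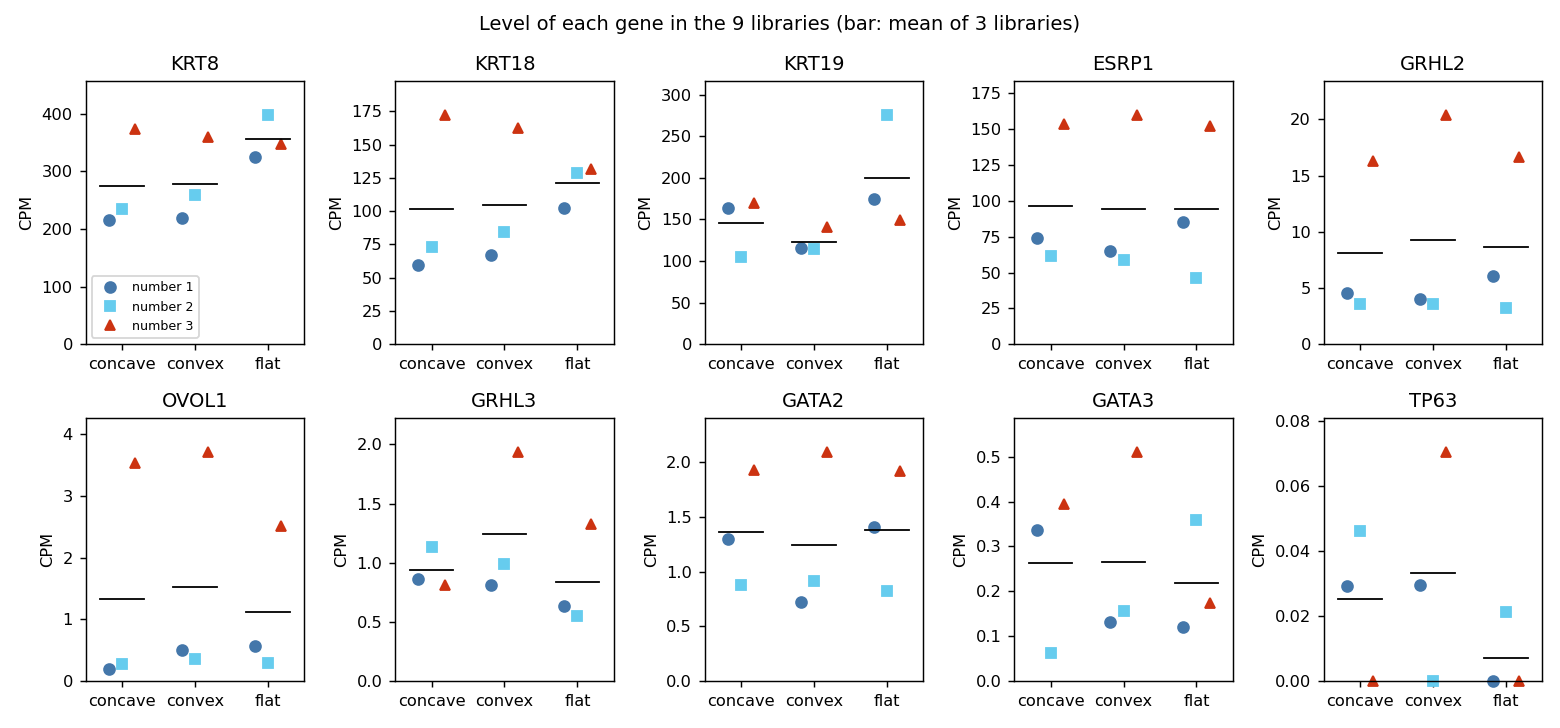
Level in CPM of each of the 10 genes (y axes from 0, 1 scale per gene) in concave, convex and flat libraries; points are single libraries, with colour and shape giving the replicate number, and bars are means of 3. Red triangles (number 3) stand above all other points for KRT18, ESRP1, GRHL2, OVOL1 and GATA2, and in no gene do the 3 plate shapes separate fully.

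Libraries differed more by replicate number than by plate shape. Total counts ran from 49420082 to 64763412, and flat 2 stood farthest from its group, with a chi-square per degree of freedom of 284.6 against flat 3. The libraries numbered 3 also stood apart: summed pluripotency marker levels (POU5F1, NANOG, TDGF1, L1TD1, DPPA4 and ZFP42) were 1739 to 1956 CPM in libraries numbered 3, against 749 to 925 in the other 6. NANOG added almost nothing to these sums, at a mean of 0.325 CPM in libraries numbered 3 and 0.0163 CPM in the other 6. Neuroepithelial markers (PAX6, SOX1, SOX2, OTX2, SIX3, LHX2 and CDH2) summed to 861 to 1037 CPM in libraries numbered 3 and to 1298 to 1498 in the other 6. Not all of them were lower in number 3: SOX1 averaged 2.97 CPM there and 2.90 CPM in the other 6, and OTX2 293 and 281 CPM. The rest averaged lower, SOX2 by the most in CPM (520 and 762 CPM). The labels do not say what a number stands for or that libraries came from separate cultures, so p-values reflect library-to-library spread alone, part or all of which could be technical. Numbers were compared because number 3 was already known to stand apart, and no p-value allows for that choice.

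The defining regulators of non-neural ectoderm ran from near 0 to moderate levels. Averaged over the 9 libraries, TFAP2A stood at 0.0436 CPM and TFAP2B at 0.00919, while DLX5 averaged 0.108, GATA3 0.249, DLX3 0.769 and GATA2 1.33 CPM. TFAP2C, a relative of TFAP2A that is also active in pluripotent cells, was highest of the 7 at 24.2 CPM. TP63, the master regulator of stratified epithelia (ENSG00000073282, chromosome 3, 189631416 to 189897279, GRCh38, plus strand), drew 2, 3 and 0 counts in concave libraries 1, 2 and 3, 2, 0 and 4 in the convex ones and 0, 1 and 0 in the flat ones. That is 12 counts in all, and a count of 0 allows up to 3 counts, or 0.0438 to 0.0632 CPM by library; these floors cover counting error only. TFAP2A and TFAP2B averaged below the lowest of these floors, and the other 5 markers averaged above all of them. The floors are for single libraries, however, and do not bound an average over 9. TFAP2A drew counts in every library, at 0.0146 to 0.0920 CPM. With TFAP2A, TFAP2B and TP63 this low, the 10 genes are called by name below and not by that tissue.

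KRT8 (ENSG00000170421, chromosome 12, 52897187 to 52949954, minus strand), the type II partner in simple epithelia, stood at 216, 234 and 374 CPM in concave libraries 1, 2 and 3. It stood at 218, 259 and 359 CPM in convex libraries and at 325, 397 and 347 CPM in flat ones. The 4 curved libraries numbered 1 and 2 lay below every flat library, while both curved libraries numbered 3 lay within the range of the flat ones, so the groups overlapped.

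KRT18 (ENSG00000111057, chromosome 12, 52948871 to 52952901, plus strand), its usual type I partner, overlaps KRT8 by 1084 bases on the opposite strand. The strand setting of the counting is not given in the sources used here, so how reads of that overlap were assigned, which bears on the ratio and the correlation of KRT8 and KRT18 below, was not tested. KRT18 gave 59.5, 73.2 and 172 CPM in concave libraries 1, 2 and 3, 67.0, 84.2 and 162 CPM in convex ones, and 103, 129 and 132 CPM in flat ones. Within each shape the library numbered 3 was highest, by a wide margin in curved cultures and by little in flat ones.

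KRT19 (ENSG00000171345, chromosome 17, 41523617 to 41528308, minus strand), a type I keratin without the usual tail domain, gave 163, 104 and 170 CPM in concave libraries 1, 2 and 3, 116, 114 and 140 CPM in convex ones, and 175, 275 and 149 CPM in flat ones. All 3 convex libraries lay below all 3 flat ones, which held for 7.76% of all tested genes. Its highest level was in flat 2, the library that stood apart.

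ESRP1 (ENSG00000104413, chromosome 8, 94641074 to 94707466, plus strand) directs epithelial splice choices. Its levels were 73.8, 61.7 and 154 CPM in concave libraries 1, 2 and 3, 65.3, 58.7 and 160 CPM in convex ones, and 85.6, 46.1 and 152 CPM in flat ones. The 3 libraries numbered 3 lay within 152 to 160 CPM, well above the other 6, in every shape.

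GRHL2 (ENSG00000083307, chromosome 8, 101492432 to 101669726, plus strand) encodes a Grainyhead-like activator of epithelial junction genes, needed for neural tube closure in mice. It stood at 4.54, 3.62 and 16.3 CPM in concave libraries 1, 2 and 3, at 4.002, 3.55 and 20.4 CPM in convex ones, and at 6.06, 3.22 and 16.7 CPM in flat ones. As for ESRP1, number 3 was the high library in each shape, with no overlap.

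OVOL1 (ENSG00000172818, chromosome 11, 65787022 to 65797219, plus strand), a zinc finger repressor of mesenchymal genes, was nearly silent outside number 3. Its counts were 13, 18 and 171 in concave libraries 1, 2 and 3, 34, 23 and 211 in convex ones, and 33, 14 and 144 in flat ones. These are 0.190, 0.276 and 3.54 CPM in concave libraries, 0.500, 0.356 and 3.71 CPM in convex ones, and 0.567, 0.295 and 2.51 CPM in flat ones.

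GATA2 (ENSG00000179348, chromosome 3, 128479427 to 128493185, minus strand), a zinc finger factor of BMP-exposed ectoderm and of blood, stood at 1.30, 0.874 and 1.93 CPM in concave libraries 1, 2 and 3. It stood at 0.721, 0.914 and 2.09 CPM in convex libraries and at 1.41, 0.821 and 1.92 CPM in flat ones. The values rest on 39 to 119 counts per library, and number 3 was highest in each shape.

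GATA3 (ENSG00000107485, chromosome 10, 8045378 to 8075203, plus strand), a related factor of surface ectoderm and trophoblast, drew 23, 4 and 19 counts in concave libraries 1, 2 and 3, 9, 10 and 29 in convex ones, and 7, 17 and 10 in flat ones. The 95% Poisson interval of convex 3 (19.4 to 41.6 counts) lay above those of 5 libraries, namely concave 2, convex 1 and 2 and flat 1 and 3. That of concave 2 (1.09 to 10.2) also lay below those of concave 1 and 3. These are intervals of raw counts, not scaled to library size. Those of concave 1 (14.6 to 34.5) and flat 1 (2.81 to 14.4) nearly touched, so this pair is not read as different in level. All other pairs overlapped in counts, which need not hold on the CPM scale.

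GRHL3 (ENSG00000158055, chromosome 1, 24319322 to 24364482, plus strand), the Grainyhead-like factor of epidermal barrier formation, gave 0.862, 1.14 and 0.808 CPM in concave libraries 1, 2 and 3. It gave 0.809, 0.992 and 1.94 CPM in convex libraries and 0.636, 0.547 and 1.33 CPM in flat ones. Number 3 was highest in convex and flat cultures but lowest in concave ones, and the counts behind these levels were 26 to 110 per library. GRHL3 overlaps STPG1, on the opposite strand, over 7484 bases, and STPG1 drew 6069 counts in all against 540 for GRHL3; the strand setting of the counting is not given in the sources used here, so how reads of the overlap were assigned was not tested.

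Between replicate numbers, 5 of the 9 tested genes rose in number 3 and none fell. In the table as a whole 17.9% of tested genes passed this test, 8.79% higher and 9.14% lower in number 3 (edgeR quasi-likelihood with plate shape as a term, Benjamini-Hochberg adjusted p under 0.05). The median log2 difference was 0.93 over the 9 genes and 0.0092 over all tested genes. In bulk RNA, more cells of a kind and more RNA per cell cannot be told apart, here and below.

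OVOL1 had the largest difference of the 9 genes, averaging 3.26 ± 0.648 CPM in libraries numbered 3 (SD, n = 3) against 0.364 ± 0.143 CPM in the other 6 (log2 difference 3.21, SE 0.3003, edgeR adjusted p = 0.00046). GRHL2 averaged 17.8 ± 2.26 against 4.17 ± 1.03 CPM (log2 difference 2.11, SE 0.164, edgeR adjusted p = 0.00026). For ESRP1 the means were 155 ± 3.92 CPM in number 3 and 65.2 ± 13.5 CPM in the other 6 (log2 difference 1.27, SE 0.134, edgeR adjusted p = 0.00070). These 3 regulators passed under all 21 alternative fits of this comparison.

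GATA2 and KRT18 rose less. GATA2 averaged 1.98 ± 0.0988 CPM in number 3 and 1.01 ± 0.279 CPM in the other 6 (log2 difference 1.00, SE 0.243, edgeR adjusted p = 0.023). It missed the threshold without concave 1, concave 3, convex 1 or convex 3 (adjusted p = 0.057, 0.060, 0.067 and 0.17). KRT18 averaged 155 ± 21.1 CPM in number 3 and 85.8 ± 25.7 CPM in the other 6 (log2 difference 0.93, SE 0.191, edgeR adjusted p = 0.012), and missed it without concave 1, concave 3 or convex 3 (adjusted p = 0.056, 0.066 and 0.11).

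These same 5 genes were the ones whose 3 libraries numbered 3 all lay above the other 6, which held for 11.7% of all tested genes. By the F test among the 3 numbers, which singles out none, 4 of the 9 genes passed against 11.8% of all genes: GRHL2 (edgeR adjusted p = 0.00091), OVOL1 (0.0016), ESRP1 (0.0021) and KRT18 (0.030), with GATA2 just outside (0.055).

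The other 4 tested genes did not pass. KRT8 averaged 360 ± 13.6 CPM in number 3 and 275 ± 72.1 CPM in the other 6 (log2 difference 0.44, 95% interval 0.09 to 0.79, edgeR adjusted p = 0.081), and passed without flat 2 (0.017) and without flat 3 (0.012). KRT19 averaged 153 ± 15.0 CPM in number 3 against 158 ± 64.2 CPM in the other 6, with a log2 difference of 0.03 whose 95% interval ran from -0.49 to 0.56 (edgeR adjusted p = 0.94). GRHL3 (log2 difference 0.71, adjusted p = 0.15; 0.036 without concave 3) and GATA3 (0.89, 0.37) had wide errors at their depth.

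**Figure D2:**
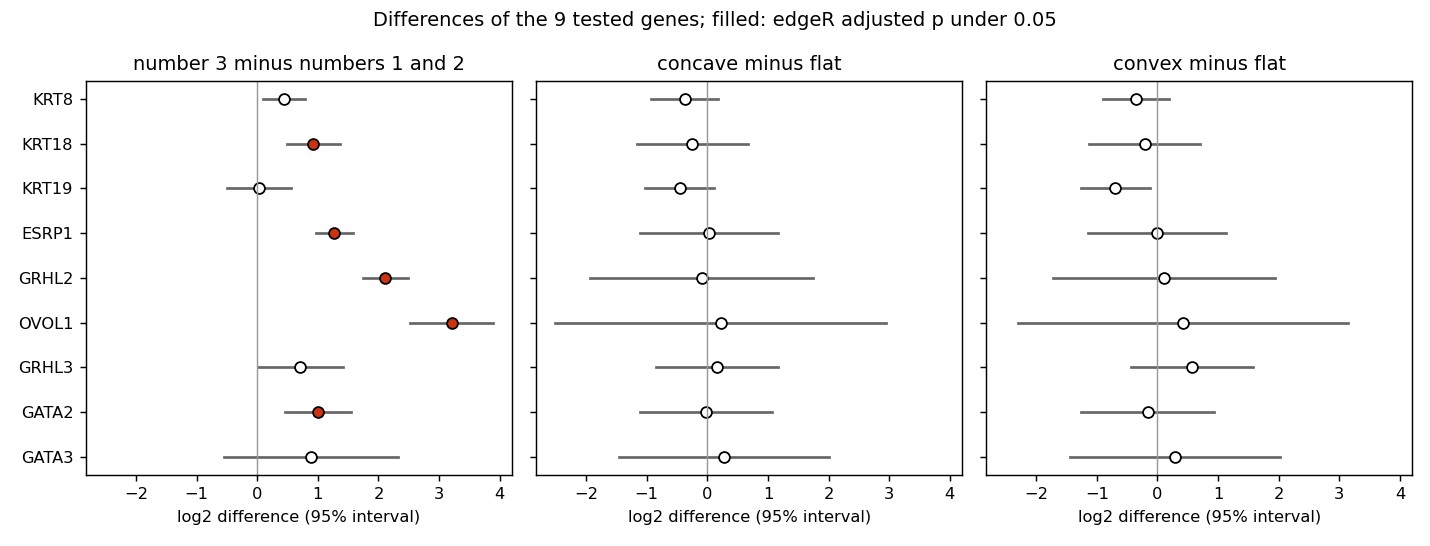
Fitted log2 differences (points) with 95% intervals (lines) of the 9 tested genes for number 3 minus numbers 1 and 2 (n = 3 and 6), concave minus flat and convex minus flat (n = 3 each). Filled points, KRT18, ESRP1, GRHL2, OVOL1 and GATA2 in the left panel, had an edgeR adjusted p under 0.05; no point is filled in the shape panels.

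Numbers 2 and 1 were also set against each other, and 0 of the 9 genes and 0% of all genes passed (edgeR; 1970 genes, or 8.54%, and 2 of the 9 at an unadjusted p under 0.05). Those 2 were GRHL2, which averaged 3.46 ± 0.213 CPM in number 2 and 4.87 ± 1.07 CPM in number 1, and ESRP1, at 55.5 ± 8.28 CPM in number 2 and 74.9 ± 10.2 CPM in number 1 (n = 3 each; edgeR adjusted p = 0.57 and 0.55).

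Plate shape changed none of the 9 genes past the threshold. Concave against flat, convex against flat, concave against convex and the F test among the 3 shapes each called 0 of the 9 and 0% of the 23075 tested genes (edgeR; 1047, 2135, 65 and 897 genes at an unadjusted p under 0.05). DESeq2 called 0, 1, 0 and 0 genes in these 4 tests, none of them among the 9, and limma voom called 0 in each.

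The keratins gave the lowest differences between concave and flat cultures. KRT8 averaged 275 ± 86.5 CPM in concave and 357 ± 36.9 CPM in flat cultures (n = 3 each; log2 difference -0.37, 95% interval -0.92 to 0.17, edgeR adjusted p = 0.84). KRT18 averaged 102 ± 61.3 CPM in concave against 121 ± 15.9 CPM in flat cultures (-0.25, -1.17 to 0.66, adjusted p = 0.92), and KRT19 146 ± 36.02 against 200 ± 66.5 CPM (-0.45, -1.02 to 0.11, adjusted p = 0.84). For the other 6 genes the log2 difference lay between -0.09 and 0.28, with wider intervals, the widest for OVOL1 (-2.51 to 2.95). Each of these 6 differences changed sign under at least 2 of the 23 other settings, OVOL1 under 7 of them. The fit behind these values had no term for the replicate number. With the number as a block, concave minus flat was -0.26 for OVOL1 (95% interval -1.12 to 0.61) and -0.11 for GRHL2 (-0.56 to 0.34). In that fit ESRP1 stood at 0.06 (-0.30 to 0.43) and GATA2 at -0.02 (-0.67 to 0.64). GRHL3 stood at 0.29 (-0.55 to 1.125), and GATA3 stayed wide at 0.16 (-1.62 to 1.95).

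Convex cultures gave much the same picture. KRT8 averaged 279 ± 72.4 CPM in convex cultures (log2 difference from flat -0.36, edgeR adjusted p = 0.58) and KRT18 105 ± 50.8 CPM (-0.21, adjusted p = 0.85). KRT19 averaged 124 ± 14.7 CPM in convex cultures, and its log2 difference of -0.69 (95% interval -1.26 to -0.12, edgeR adjusted p = 0.51) was the only 1 of the 9 with an unadjusted p under 0.05 (0.022), as for 9.25% of all genes. The other 6 genes lay between -0.16 and 0.57. Without flat 2 the KRT19 difference was -0.40 for convex and -0.15 for concave against flat cultures. Between concave and convex cultures the log2 differences of KRT8, KRT18 and KRT19 were -0.02, -0.04 and 0.24 (edgeR adjusted p = 1.0 for each), with a 95% interval of -0.57 to 0.53 for KRT8.

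The keratin differences between shapes were not the same in each number. In numbers 1 and 2, all 4 curved libraries lay below both flat libraries for KRT8, KRT18 and KRT19 and for none of the other members, as for 20.5% of all tested genes. Their levels over these libraries averaged 232 ± 19.5 CPM in curved against 361 ± 50.9 CPM in flat cultures for KRT8, 71.0 ± 10.5 against 115.5 ± 18.4 CPM for KRT18 and 124 ± 26.4 against 225 ± 70.9 CPM for KRT19 (n = 4 and 2). In number 3 the curved libraries instead averaged 367 CPM for KRT8, 167 CPM for KRT18 and 155 CPM for KRT19 (2 libraries), against 347, 132 and 149 CPM in flat 3.

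Library by library, on the scale of log2(CPM + 0.01), concave minus flat differences of KRT8 were -0.59, -0.76 and 0.11 in numbers 1, 2 and 3, and convex minus flat ones -0.57, -0.62 and 0.05. Those of KRT18 were -0.79, -0.81 and 0.39 for concave and -0.61, -0.61 and 0.30 for convex cultures. KRT19 was uneven, with -0.10, -1.40 and 0.19 for concave and -0.59, -1.27 and -0.09 for convex cultures. The KRT8 and KRT18 differences were thus alike in numbers 1 and 2, of which only number 2 uses flat 2, while most of the KRT19 difference was in number 2. Both curved groups are set against the same flat libraries, so their likeness is no independent repeat.

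**Figure D3:**
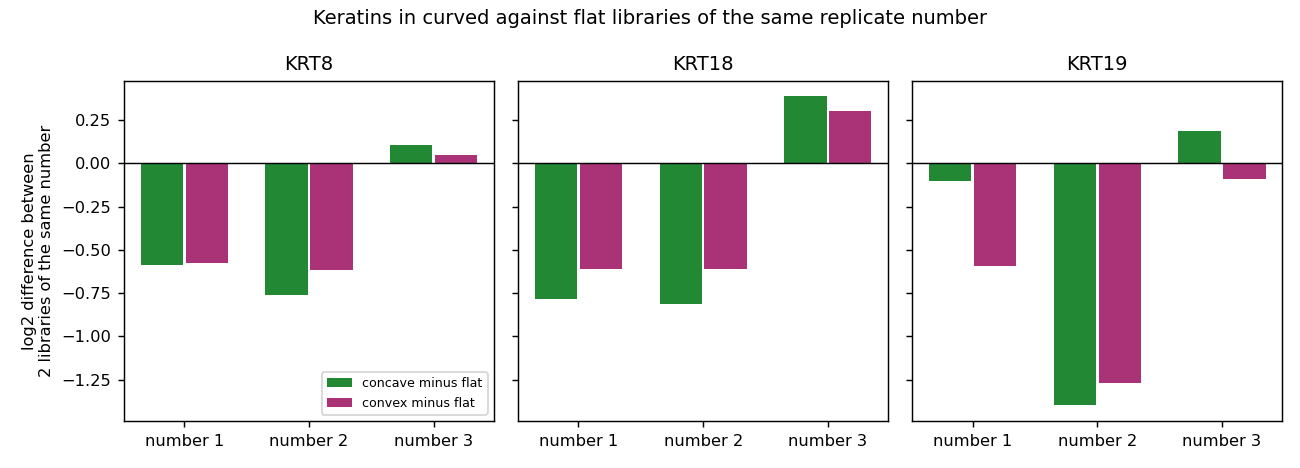
Difference in log2(CPM + 0.01) between a concave or convex library and the flat library of the same replicate number, for KRT8, KRT18 and KRT19; each bar is 1 pair of libraries, so there is no error bar. Bars for numbers 1 and 2 are all below 0, from -0.10 to -1.40, and bars for number 3 lie between -0.09 and 0.39.

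Fitted on the 6 libraries numbered 1 and 2 alone, a fit added after these values were seen, concave minus flat log2 differences were -0.69 for KRT8, -0.81 for KRT18 and -0.76 for KRT19 (edgeR adjusted p = 0.14, 0.14 and 0.17). Convex minus flat they were -0.61, -0.62 and -0.98 (adjusted p = 0.17 for each). No gene of the table passed in this fit either, although 5300 and 5081 had an unadjusted p under 0.05. With the replicate number as a block in the fit of all 9 libraries, 0 genes were called, and KRT8, KRT18 and KRT19 had concave minus flat log2 differences of -0.42, -0.43 and -0.45 (edgeR adjusted p = 0.51, 0.51 and 0.52) and convex minus flat ones of -0.40, -0.34 and -0.69 (adjusted p = 0.28, 0.39 and 0.26).

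Split by shape, the number 3 difference of KRT18 and KRT8 was larger in each curved group than in flat cultures. Within concave, convex and flat cultures, number 3 exceeded the mean of numbers 1 and 2 on the same scale by 1.38, 1.11 and 0.20 for KRT18 and of 0.73, 0.60 and -0.05 for KRT8. GRHL2 differed by 2.00, 2.43 and 1.92, ESRP1 by 1.19, 1.37 and 1.28 and OVOL1 by 3.89, 3.11 and 2.59, so that ESRP1 differed by nearly the same amount in each shape.

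In a fit with separate number terms, also added after seeing these values, KRT8 and KRT18 rose in number 3 of curved cultures (log2 differences 0.66 and 1.24, edgeR adjusted p = 0.021 and 0.0017), along with GRHL2, ESRP1 and OVOL1, and 10% of all genes passed in either direction. In flat cultures, with 1 library against 2, none of the 9 passed and 0.451% of all genes did, with GRHL2 at 1.84 and OVOL1 at 2.52 just short (adjusted p = 0.052 and 0.054). The test of the difference itself, curved minus flat, gave 0.72 for KRT8, 1.05 for KRT18 and 0.91 for KRT19. The other tested genes ran from -0.69 (GRHL3) to 1.83 (GATA3), with OVOL1 at 0.98. None of the 9 passed (edgeR adjusted p = 0.53 for each keratin, with 0% of all genes called).

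The balance among the keratins moved with the number as well. On the CPM per kilobase scale, KRT8 exceeded KRT18 by 2.88, 2.54 and 1.73 times in concave libraries 1, 2 and 3, by 2.58, 2.43 and 1.75 times in convex ones and by 2.51, 2.45 and 2.09 times in flat ones. The lowest ratio in each shape was that of number 3. KRT18 made up 25.4%, 39.6% and 48.6% of KRT18 plus KRT19 in concave libraries, 35.0%, 40.8% and 51.9% in convex ones and 35.3%, 30.3% and 45.1% in flat ones. This share was highest in number 3 of every shape, and other type I keratins were not counted in it.

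Across all 9 libraries, with log2 CPM of each gene as the measure, the members split in a similar way. GRHL2 moved with ESRP1 (Pearson r = 0.986), OVOL1 (0.960) and GATA2 (0.934), and KRT8 with KRT18 (0.946), whereas r was 0.038 between KRT19 and GRHL2 and -0.56 between KRT19 and GRHL3. These values describe 9 libraries, some of which share a number or a shape. Over the 6 libraries numbered 1 and 2 alone, a setting chosen after seeing the data, r was 0.936 between GRHL2 and ESRP1, 0.811 between GRHL2 and GATA2 and 0.985 between KRT8 and KRT18. For GRHL2 and OVOL1 it was 0.416 over these 6, and for KRT19 it was 0.032 with GRHL2 and -0.897 with GRHL3.

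Among 11954 genes averaging at least 5 CPM, the profile most like that of KRT18 was MYL9, a myosin light chain (r = 0.997 over 9 libraries), followed by COTL1, an actin-binding protein (0.986), and DCAF4 (0.985). MYL9 averaged 122 CPM in libraries numbered 3 and 67.6 CPM in the other 6. For GRHL2 it was MAL2, an apical transport protein (0.993), and for ESRP1 the transcription factor FOXO1 (0.992), the chloride channel ANO1 (0.991) and the actin nucleator COBL (0.991).

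OVOL1 was closest to ZNF488 (0.991), which averaged 19.98 CPM in number 3 and 0.814 CPM in the other 6, and GATA2 to the protease receptor F2RL1 (0.973). KRT8 was closest to the kinase VRK1 (0.981) and KRT19 to RASSF7 (0.975), and for GRHL3 no gene reached more than 0.952 (FAM120C). With so many genes searched over 9 libraries, high values of r are to be had for any profile.

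Most of the wider keratin family was silent or nearly so. Of the 55 keratin genes found, 27 had no count in any library and 10 could be tested, while KRT8, KRT18 and KRT19 together made up 92.6% to 94.2% of all keratin CPM in each library. Next came KRT7, a type II keratin of simple and glandular epithelia, which averaged 34.1 ± 2.67 CPM in number 3 against 20.2 ± 4.27 CPM in the other 6 and rose (log2 difference 0.79, edgeR adjusted p = 0.0065; 0.070 without convex 3). KRT10, of suprabasal epidermis, averaged 13.2 ± 1.09 CPM in number 3 and 13.9 ± 3.46 CPM in the other 6 (-0.04, adjusted p = 0.86), and KRT17, of skin appendages and stressed epidermis, 1.29 ± 0.359 and 1.00 ± 0.565 CPM (0.60, adjusted p = 0.36; 0.036 without flat 3). KRT16, at a mean of only 0.291 CPM, fell in number 3 (log2 difference -2.035, edgeR adjusted p = 0.020). The basal epidermal pair was absent or nearly so, with KRT14 at 0 counts and KRT5 at a mean of 0.00683 CPM.

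**Figure D4:**
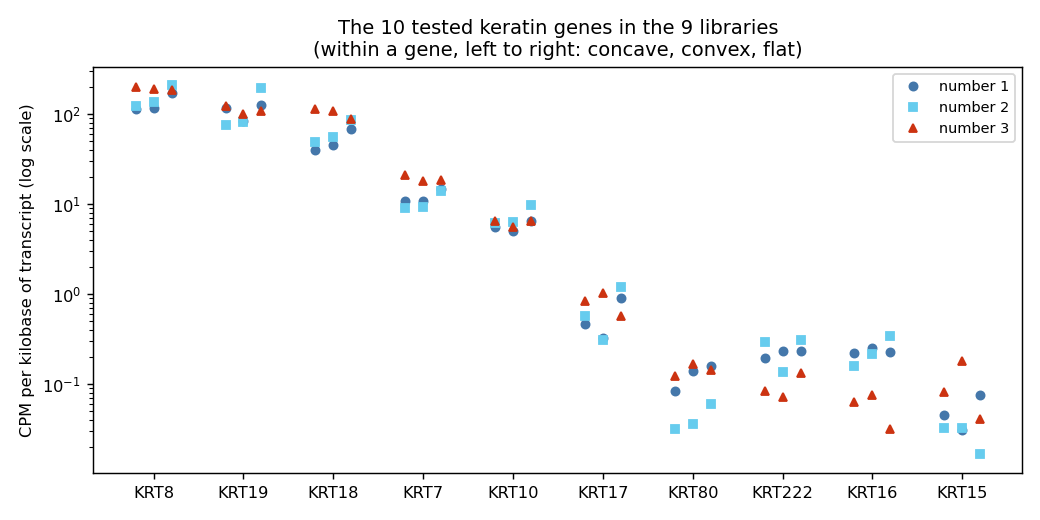
CPM per kilobase of transcript (log scale) of the 10 tested keratin genes in every library; within each gene the columns run concave, convex, flat, and colour and shape give the replicate number. KRT8, KRT19 and KRT18 lie at or above 39.9, KRT7 and KRT10 follow, and the remaining 5 lie near or below 1.

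Many processed copies of KRT8 and KRT18 in the genome could share reads with the genes. KRT8P12, the KRT8 copy with most counts, lies on chromosome 3 at 160565447 to 160569248 (GRCh38), and KRT18P17, the KRT18 copy with most counts, on chromosome 3 at 12787393 to 12788671. Over the aligned length of GENCODE v29 transcripts, 90.7% of bases were identical between KRT8P12 and KRT8, and 93.9% between KRT18P17 and KRT18. Of all 50-base windows of the KRT8 transcript 32.6% occurred unchanged in at least 1 of its copies, 31.8% for KRT18 and 1.79% for KRT19, whereas of 100-base windows 5.92%, 0% and 0% did. Read length is not given in the sources used here, so the share of reads without a unique place is unknown.

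Counts on the copies were small beside those of the genes. The 51 KRT8 copies in the table together drew 3.00% to 5.05% of the KRT8 count per library, the 67 KRT18 copies 1.46% to 4.22% of the KRT18 count and the 5 KRT19 copies at most 0.0196%. For KRT18, the share was 1.87% in concave 3 against 4.22% and 3.64% in concave 1 and 2. The copies drew 155 counts in concave 3 and 172 and 174 in concave 1 and 2, so mainly the count of the gene differed. Flat 2 and flat 3 had smaller shares than concave 3 (1.56% and 1.46%) although KRT18 was lower there.

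Among the 11 gene lists, that of junction and surface genes of epithelia had most calls, but it also had the most tested genes. The pluripotency list (14 of 22 called) and the early neuroectoderm list (13 of 21 called) had similar shares. Of 29 tested, 17 rose in number 3 and none fell, where 8.79% of all tested genes rose and 9.14% fell. The median log2 difference was 0.68 beside 0.0092 over all genes. EPCAM, an epithelial adhesion molecule, averaged 278 ± 31.4 CPM in number 3 and 55.9 ± 10.9 CPM in the other 6 (log2 difference 2.33, edgeR adjusted p = 0.00017). The tight junction protein MARVELD3 (1.75), the apical polarity protein CRB3 (2.03) and MAL2 (1.61) rose as well (edgeR adjusted p at most 0.00046). The 17 became 11 without concave 1, concave 3 or convex 1 and 9 without convex 3, and 1 gene of the list fell without concave 2 or flat 2.

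The list of epithelial transcription and splicing factors beside the members had 8 of 16 genes higher and 0 lower (median 0.69). Among the 8 was LSR, a membrane receptor and no such factor (log2 difference 0.51, edgeR adjusted p = 0.041). ESRP2, the paralogue of ESRP1, averaged 44.6 ± 6.59 CPM in number 3 against 9.87 ± 2.38 CPM in the other 6 (log2 difference 2.18, edgeR adjusted p = 0.00042). On the CPM per kilobase scale, ESRP1 exceeded ESRP2 by 7.59, 5.86 and 3.69 times in concave libraries 1, 2 and 3, 6.63, 5.80 and 3.06 times in convex ones and 6.49, 7.96 and 3.81 times in flat ones, with the lowest ratio in number 3 of each shape. TFCP2L1 (2.01), a factor of epithelia and naive pluripotency, RBM47 (1.55), an RNA-binding protein, and ELF4 (1.25), an ETS factor, also rose (edgeR adjusted p at most 0.0022). Without convex 3, 4 of the list rose.

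Genes whose products bind or anchor keratin filaments held fewer calls. Of 20 tested plakin, desmosome and partner genes, 4 rose and 0 fell in number 3 (median 0.44). They included the plakin PPL (57.5 ± 5.88 CPM in number 3 and 29.8 ± 6.99 CPM in the other 6; log2 difference 0.97, edgeR adjusted p = 0.0026), KRT7 and the desmosomal plakophilin PKP3 (0.65, adjusted p = 0.0097), while the desmosomal cadherin DSC2 missed the threshold (0.53, adjusted p = 0.054; 0.038 without concave 2 and 0.027 without flat 2). The 4 became 7 with DESeq2, 7 with the transcript length offset, 9 at an adjusted p under 0.1, 7 without concave 2, 8 without flat 2 (with 1 lower) and 1 without convex 3, and PKP3 was among those lost without concave 3, convex 1 or convex 3 (adjusted p up to 0.0993).

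Lineage genes gave a mixed picture. Of 25 non-neural ectoderm and neural border genes only 15 had the counts to be tested, and in number 3, 3 rose and 1 fell (median -0.08). FOXI3, of preplacodal ectoderm, averaged 15.2 ± 4.29 CPM in number 3 and 2.39 ± 0.887 CPM in the other 6 (log2 difference 2.66, edgeR adjusted p = 0.00048), and TFAP2C 34.9 ± 1.69 and 18.8 ± 1.496 CPM (0.89, adjusted p = 0.0010). EPAS1, a hypoxia-inducible factor, rose (1.28, adjusted p = 0.012), and ZIC1, of the neural plate and its border, fell (-1.64, adjusted p = 0.0022). EPAS1 missed the threshold without convex 3 (adjusted p = 0.11). The 3 that rose became 5 without concave 2 and 6 without flat 1, flat 2 or flat 3, and 2 fell without concave 2, concave 3 or flat 2.

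The 7 chosen markers of non-neural ectoderm (TFAP2A, TFAP2B, TFAP2C, DLX3, DLX5, GATA2 and GATA3) summed to 36.3 to 39.5 CPM in number 3 and to 19.3 to 23.5 CPM in the other 6, nearly all of it TFAP2C, and 5 of the 7 averaged under 1 CPM. Their part in the rise of KRT18, GRHL2, ESRP1, GATA2 and OVOL1 was not tested.

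Of 24 amnion and trophectoderm genes 11 were tested, and 5 rose and 0 fell in number 3 (median 0.77), among them TFAP2C, KRT7, the growth factor carrier IGFBP3 (0.90, edgeR adjusted p = 0.0090) and the surface protein VTCN1 (0.86, adjusted p = 0.011). Only 3 rose without concave 3 and 2 without convex 3, where VTCN1 (adjusted p = 0.053 and 0.091) missed the threshold, as it did without concave 1 (0.051) and as IGFBP3 did without concave 3 (0.058). Without flat 2 or flat 3, 1 gene of the list fell. Of the 6 chosen amnion and trophectoderm markers CGA had no count, and ISL1 (0.0685), HAND1 (0.0337) and CDX2 (0.0117) averaged under 0.1 CPM, while GABRP and VTCN1 made up the sum of 6.11 to 6.79 CPM in number 3 and 2.84 to 6.03 CPM in the other 6.

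Of 24 stratified epidermis genes 10 were tested, and 3 rose and 2 fell in number 3 (median 0.63). The laminin chain LAMB3 (4.06 ± 0.516 CPM in number 3 and 0.949 ± 0.377 CPM in the other 6; log2 difference 2.16, edgeR adjusted p = 0.00092) rose, while the hemidesmosomal collagen COL17A1 fell (-0.72, adjusted p = 0.0075; 0.084 without convex 3). Without flat 3, 5 rose and 1 fell, and 1 fell without concave 1 or convex 1 and 0 without convex 3. Epidermal markers KRT5, KRT14, KRT15 and TP63 summed to at most 0.757 CPM in any library.

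Repressors of the epithelial state and mesenchymal genes, 20 tested, had 3 higher and 6 lower in number 3 (median -0.08). ZEB1, which represses GRHL2 and ESRP1 in carcinoma cells, averaged 4.30 ± 0.889 CPM in number 3 and 11.9 ± 3.41 CPM in the other 6 and fell (log2 difference -1.42, edgeR adjusted p = 0.0082; 0.078 without convex 3). CDH2 (-0.80, adjusted p = 0.0094) and the growth factor receptor PDGFRB (-1.21, adjusted p = 0.0025) fell too, and its relative PDGFRA rose (0.88, adjusted p = 0.0094). Without convex 3, CDH2 and PDGFRA missed the threshold (adjusted p = 0.0998 and 0.10), and 1 gene of the list rose and 1 fell. The 4 chosen mesenchymal markers (TWIST1, PRRX1, COL1A1 and PDGFRB) summed to 929 to 1415 CPM in number 3 and to 487 to 1096 CPM in the other 6. COL1A1 averaged 1149 CPM in number 3 and 680 CPM in the other 6, and PDGFRB 15.4 and 35.95 CPM. TWIST1 and PRRX1 averaged under 1 CPM.

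Targets and regulators of BMP signalling, 17 tested with GATA2 and GATA3 among them, had 4 higher and 3 lower (median 0.32), with 1 higher without concave 1, concave 3, convex 1 or convex 3. ID1 (1.45, edgeR adjusted p = 0.0034) and ID3 (0.62, adjusted p = 0.021; 0.078 to 0.10 without each of those 4) rose in number 3 while ID2 (-1.85, adjusted p = 0.00058) and the inhibitory SMAD6 (-0.93, adjusted p = 0.0033) fell. Of AP-1 and YAP-linked genes, 8 of 19 rose and 0 fell (median 0.49), with TEAD4, a partner of YAP that is also a trophectoderm factor (0.98, adjusted p = 0.0022), and AMOTL2, a YAP-binding junction protein (1.22, adjusted p = 0.0042), beside CCN1 and CCN2. Without convex 3, 3 of the list rose and AMOTL2 missed the threshold (adjusted p = 0.055), and without flat 2, 1 fell.

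For scale, 14 of 22 tested pluripotency genes rose and 0 fell in number 3 (median 0.74), and 13 of 21 early neuroectoderm genes fell and 0 rose (median -0.61). Without convex 3 these were 8 and 5 genes, and without convex 1, 8 neuroectoderm genes fell. The rise of the epithelial regulators thus came together with higher pluripotency and lower neuroectoderm mRNAs in the same 3 libraries, and whether these have a common source was not tested. In each of the 11 lists, 0 genes passed in concave or convex against flat cultures.

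**Figure D5:**
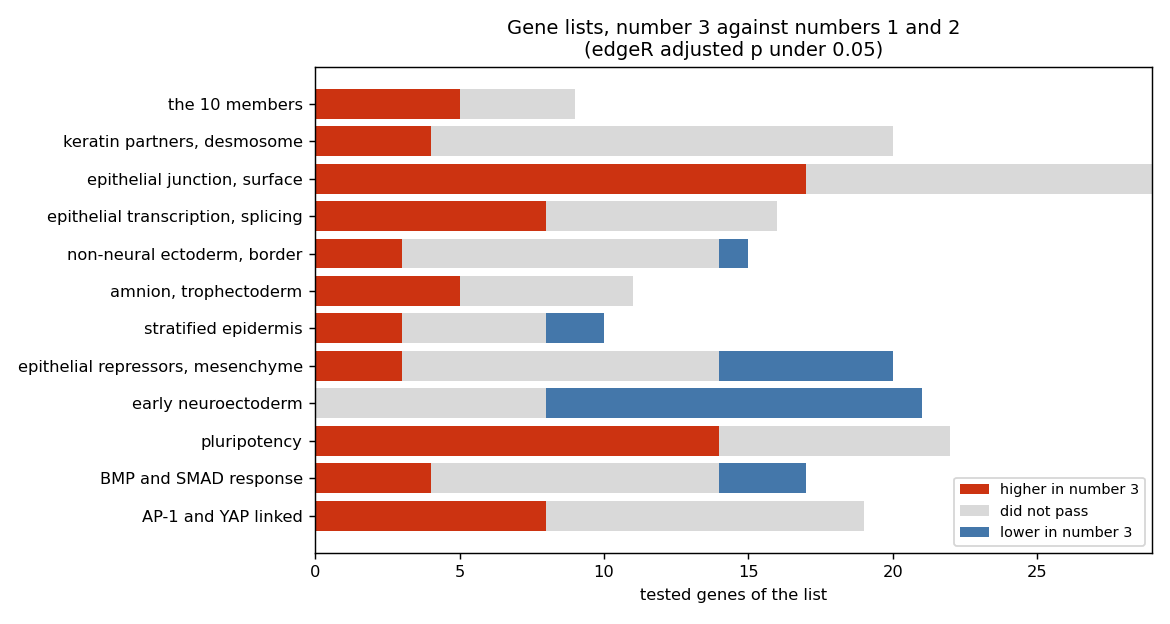
Number of tested genes in the 10 members and 11 gene lists that were higher (red), lower (blue) or did not pass (grey) in number 3 against numbers 1 and 2 (edgeR adjusted p under 0.05; x axis, genes). Red dominates epithelial junction (17 of 29), epithelial transcription and splicing (8 of 16) and pluripotency (14 of 22), and blue early neuroectoderm (13 of 21); lists share some genes.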

How the data were processed

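Poly(A) RNA was selected with poly-T beads for stranded TruSeq libraries, per the labels' protocols. The authors deposited 1 table of raw gene counts; the submitters' processing notes name HISAT2, featureCounts and GRCh38, while tool versions, the annotation and the handling of strand are not stated in them or in the labels. Each of the 9 columns was matched to its library by shape and number. Totals of 49420082 to 64763412 counts bound the precision, and Poisson and floor limits cover counting error only. In R 4.3.3, edgeR 4.0.16 fitted filterByExpr-kept genes with TMM scaling and robust quasi-likelihood dispersion, with 1 coefficient per shape for shape tests and with shape and number for number tests (common biological coefficient of variation 0.329 and 0.217). P-values were adjusted over all 23075 tested genes, and an adjusted p under 0.05 was called. The steps were tested on simulated counts drawn at the spread of the fit with shape and number, without an effect of the number. The shape tests were thus not tested at the wider spread of their own fit. CPM used TMM-scaled totals, computed from the deposited counts, and lengths and positions came from GENCODE v29.

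The members, the 11 lists and the tests were chosen with earlier results of these data known. Genes named were the members, keratins averaging at least 1 CPM, up to 4 genes per list with the smallest p at 1 CPM or more, up to 3 nearest profiles per member, and the copies with most counts; markers are named beside their sums. Some genes the rule selects are left out, and KRT16 and LSR were named in addition to it. Several lists share genes, among them TFAP2C, KRT7 and TP63.

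Deviations from the group means of same-numbered libraries correlated with r = 0.379, 0.021 and 0.338 for numbers 1, 2 and 3 between concave and flat, 0.372, 0.397 and 0.62 between convex and flat, and 0.579, 0.29 and 0.612 between concave and convex. By a minimum of 0.1 the numbers paired convex with flat and concave with convex libraries. A replicate block was fitted as an alternative. Others were DESeq2 1.42.0, limma 3.58.1 voom, other scalings, filters and thresholds, a transcript length offset (lowess, span 0.3), copies added to their keratin, and each library left out. Promoter and protein sequences were not used here, and some selected items are not reported here.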

Additional observations from a re-analysis of the deposited data

Results flagged for a closer look

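For KRT19, number 3 minus the mean of numbers 1 and 2 was a log2 difference of -0.56 in flat cultures, opposite in sign to the 0.38 in concave and 0.29 in convex cultures. The test of that difference, curved minus flat, gave 0.91 and did not pass over all genes (edgeR adjusted p = 0.53). Flat 3 stood at 149 CPM, against 175 CPM in flat 1 and 275 CPM in flat 2, the highest of the 9 libraries.

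For GRHL3, number 3 lay below numbers 1 and 2 in concave cultures, with a log2 difference of -0.29, and above them in convex (1.10) and flat cultures (1.16). The difference between concave and the other shapes was not tested. The 3 concave libraries held 59, 74 and 39 counts.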

How the results depend on the processing

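Over 23 alternatives, 0 genes and 0 members were called between shapes, except 1 gene convex against flat with DESeq2. The replicate block changed no call: 0 genes passed in each shape comparison, with 2046, 4222 and 147 genes at an unadjusted p under 0.05 for concave minus flat, convex minus flat and concave minus convex.

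The number 3 comparison called 4137 genes, and 1077 to 5575 with each library left out (1077 without convex 3, 2033 without convex 1, 2035 without concave 1, 2389 without convex 2); members called ranged from 3 (without concave 1 or convex 3) to 6. The F test among numbers called 2714 genes, but 4087 without the filter, 4465 with DESeq2, 4484 at an adjusted p under 0.1, 4166 with the length offset and 352 to 4999 with a library left out (352 without convex 3, 1004 without concave 1, 1043 without convex 1, 1150 without convex 2, 1454 without concave 3, 1627 without flat 1 and 4999 without flat 2). For it, members called ran from 3 to 6. Number 2 against 1 called 0 genes, but 108 without the filter, 147 with DESeq2, 1 with DESeq2 size factors, 1 at an adjusted p under 0.1, 2 with the length offset and 0 to 11 with a library left out (11 without flat 2).

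The KRT19 difference of number 3 reversed to -0.0703 with library size only, -0.0296 with upper-quartile factors and -0.044 with no shape term, and ran from -0.16 to 0.29 with a library left out. Leaving out libraries also turned uncalled values: concave minus flat KRT18 ran from -0.87 to 0.0103 and convex minus flat KRT18 from -0.67 to 0.019. Concave minus convex, KRT8 ran from -0.29 to 0.20 and KRT18 from -0.64 to 0.42. Over all 23 alternatives, concave minus flat OVOL1 ran from -2.27 to 1.59, GRHL2 from -1.08 to 0.80, ESRP1 from -0.48 to 0.54, GATA2 from -0.35 to 0.28, GATA3 from -0.24 to 0.82 and GRHL3 from -0.061 to 0.74. Convex minus flat, 5 of these 6 changed sign as well, the exception being GRHL3 (0.10 to 1.04). For number 3, KRT10 ran from -0.17 to 0.0615 and KRT17 from -0.024 to 1.19. KRT8 was called with DESeq2 (0.045) and with the length offset (0.016). Of 25 non-neural ectoderm and border genes, the 3 higher in number 3 became 6 without the filter. The shape fits with a library left out had no term for the replicate number, so the numbers were uneven between shapes in them. The cause of these changes was not tested. Depth limits GATA3 (4 to 29 counts a library) and TP63 (0 to 4).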
